A study of Homo sapiens with 19 samples.

Results

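The genes described here carry glucose into the cell, split it to lactate, or belong to the response to low oxygen. They are represented by 9 Ensembl transcripts, 1 for each gene, picked by identifier for the role of the gene. The rule used no measured value, but the list was drawn up with earlier results of these data known. All 9 were among the 175775 transcripts listed for each library: HIF1A (ENST00000337138), SLC2A1 (ENST00000426263), HK2 (ENST00000290573), GAPDH (ENST00000229239), PGK1 (ENST00000373316), ENO1 (ENST00000234590), PKM (ENST00000335181), LDHA (ENST00000422447) and CA9 (ENST00000378357).

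Poly(A) RNA was sequenced from MDA-MB-231, an established human line of mesenchymal, triple-negative breast cancer, in 17 libraries of 6 groups. In the siRNA experiment the cells received control siRNA (Ctrl, 4 libraries), HMGN5 siRNA (siHMGN5, 2 libraries) or STAT3 siRNA (siSTAT3, 2 libraries). In the lentiviral experiment they received control siRNA with the control vector (Ctrl+Vector, 3 libraries), STAT3 siRNA with the control vector (siSTAT3+Vector, 3 libraries) or STAT3 siRNA with HMGN5 delivered by lentivirus (siSTAT3+HMGN5, 3 libraries). Each siRNA was used at 30 nM, so all groups, controls included, carry a transfected siRNA, and all groups of the lentiviral experiment also carry a vector. STAT3 is a transcription factor activated downstream of cytokine receptors, and HMGN5 is a nucleosome-binding protein. The cells grew in L15 medium in air, and the labels name no treatment with low oxygen. They do not say how many siRNA sequences made up each treatment or whether replicates are separate cultures. The p-values therefore reflect only how far these libraries differ from each other, which may be technical.

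Glycolysis turns glucose into pyruvate through a chain of cytosolic enzymes, and many tumour cells run it at a high rate and release lactate even when oxygen is present. HIF1A encodes the oxygen-regulated subunit of hypoxia-inducible factor 1, which binds short DNA elements near many glycolytic genes and raises their transcription. The HIF-1α protein is controlled largely by oxygen-dependent degradation, so the level of its transcript is not a measure of its activity.

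The promoters of the members whose transcript level passed a test in at least 1 comparison, and whose window lies outside the annotated gene, are shown to place the motifs of the factors concerned. Each is the 250 bases before the outermost RefSeq start of the gene (GRCh38.p14), written 5′ to 3′ on the strand of the gene, with capitals marking ACGTG or GCGTG, the core letters of the hypoxia response element, on either strand.
HIF1A (chr14:61695263-61695512, plus strand): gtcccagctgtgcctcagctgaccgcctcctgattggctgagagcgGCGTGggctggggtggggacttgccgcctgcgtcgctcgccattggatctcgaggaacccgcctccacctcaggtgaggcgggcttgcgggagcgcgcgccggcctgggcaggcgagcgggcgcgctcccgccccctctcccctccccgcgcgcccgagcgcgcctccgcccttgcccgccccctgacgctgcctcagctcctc
SLC2A1 (chr1:42958869-42959118, minus strand): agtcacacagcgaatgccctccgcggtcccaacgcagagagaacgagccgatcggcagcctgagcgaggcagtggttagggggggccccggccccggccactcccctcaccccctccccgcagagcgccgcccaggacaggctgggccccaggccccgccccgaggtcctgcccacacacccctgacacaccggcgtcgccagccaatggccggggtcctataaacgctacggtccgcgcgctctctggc
HK2 (chr2:74833877-74834126, plus strand): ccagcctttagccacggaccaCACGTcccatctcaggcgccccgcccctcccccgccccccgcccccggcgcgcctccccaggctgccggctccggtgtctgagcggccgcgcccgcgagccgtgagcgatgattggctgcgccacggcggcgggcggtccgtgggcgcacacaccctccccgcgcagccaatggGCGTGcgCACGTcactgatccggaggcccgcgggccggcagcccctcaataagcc
PGK1 (chrX:78103998-78104247, plus strand): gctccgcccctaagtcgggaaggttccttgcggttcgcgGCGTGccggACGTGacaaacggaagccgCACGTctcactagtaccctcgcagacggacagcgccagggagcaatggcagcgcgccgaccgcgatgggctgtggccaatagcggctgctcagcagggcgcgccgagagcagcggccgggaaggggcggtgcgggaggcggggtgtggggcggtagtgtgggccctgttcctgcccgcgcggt
ENO1 (chr1:8878687-8878936, minus strand): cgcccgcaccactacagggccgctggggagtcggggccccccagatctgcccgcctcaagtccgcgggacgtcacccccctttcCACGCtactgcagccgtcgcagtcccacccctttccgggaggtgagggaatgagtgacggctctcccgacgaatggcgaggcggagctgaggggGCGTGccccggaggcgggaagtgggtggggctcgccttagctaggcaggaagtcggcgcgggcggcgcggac
All 9 genes matched the RefSeq promoter table, with 12 windows between them. The core letters ACGTG or GCGTG were in 9 of the 12 windows and in 43.2% of the 35114 windows of the table. In the palindrome CACGTG a match on each strand overlaps, and both were counted. PGK1 had 3 such matches within its window, the first HK2 window had 3, ENO1 had 2 and HIF1A had 1, while the letters were absent from the windows of SLC2A1 and PKM. The STAT site TTCNNNGAA was in none of the 12 windows and in 6.57% of all windows. The tables used here do not tie the listed transcripts to these starts, and a match of letters is a description of the window, not a bound site.

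Levels were compared between genes in the deposited transcripts per 1000000 (TPM), which are scaled by transcript length. In Ctrl, PKM stood at 518 ± 44.4 TPM (SD, n = 4) and ENO1 at 516 ± 32.8 TPM, with overlapping ranges. PKM encodes pyruvate kinase, which makes pyruvate, and ENO1 encodes enolase, which acts just before it. HIF1A followed at 40.8 ± 22.1 TPM, then PGK1 (phosphoglycerate kinase) at 16 ± 0.458 and SLC2A1 (the glucose transporter GLUT1) at 14.6 ± 5.51 TPM. HK2 (hexokinase 2, which traps glucose in the cell as glucose 6-phosphate) stood at 7.07 ± 2.11 TPM. PGK1 and SLC2A1 overlapped in Ctrl, whereas the ranges of HIF1A and PGK1 and those of SLC2A1 and HK2 did not. HIF1A, at 19.4 to 64.1 TPM, also overlapped SLC2A1, at 9.49 to 20 TPM.

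The order differed between the groups of the lentiviral experiment. In Ctrl+Vector, HIF1A ranked 3 of 9 at 37.5 ± 4.38 TPM (SD, n = 3). In siSTAT3+Vector it ranked 5, at 9.01 ± 2.49 TPM, behind SLC2A1 at 16.6 ± 0.736 and overlapping HK2 at 9.24 ± 1.08. Its range there also overlapped that of PGK1, at 6.76 ± 0.267 TPM. ENO1 stayed highest in all 3 lentiviral groups, with ranges that did not overlap those of PKM.

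The remaining transcripts were low. The GAPDH transcript lay between 0.158 and 1.41 TPM over all libraries (11 to 82 estimated reads) and the LDHA transcript between 0.265 and 4.33 TPM (24 to 333 reads). GAPDH (glyceraldehyde 3-phosphate dehydrogenase) and LDHA (lactate dehydrogenase A, which makes lactate) are known as abundant enzymes in most dividing cells. The estimation divides reads between the transcripts of a gene and its near-identical copies, and GAPDH has many processed pseudogenes, so these values describe the listed transcripts and not the genes. Of the 8 members with reads in every library, none had an estimate within 0.0015 of a whole number in any library. The CA9 transcript (carbonic anhydrase IX, a surface enzyme that buffers acid and a classical marker of hypoxia) was listed at 0 in 12 of 17 libraries and reached at most 117 reads.

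**Figure D1:**
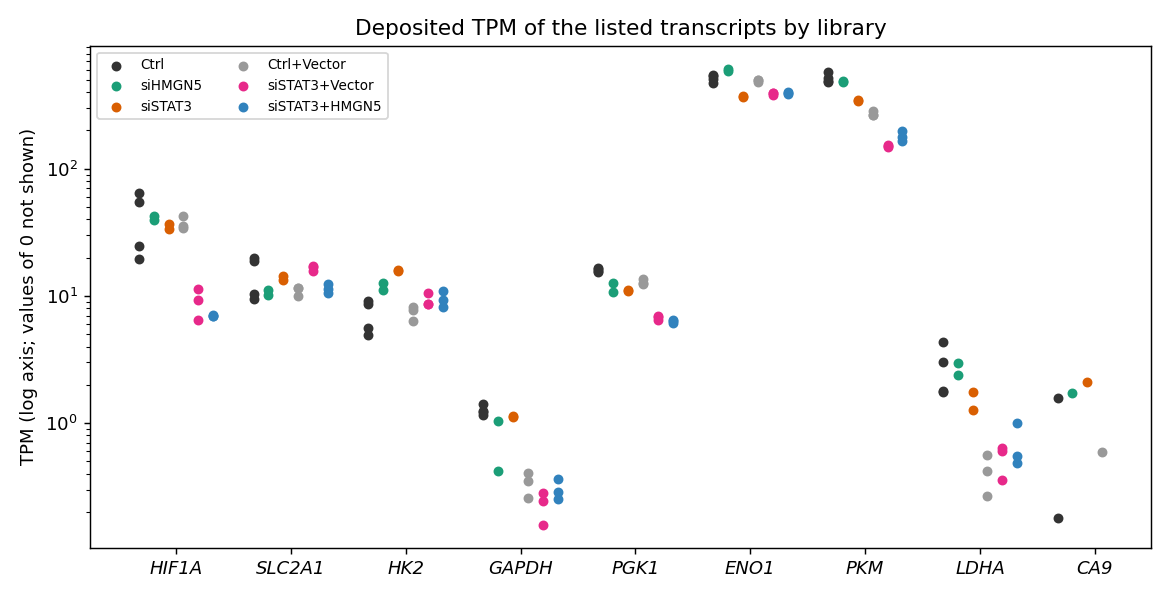
Deposited TPM of the 9 listed transcripts on a log axis, 1 point per library, coloured by group. Values of 0 are not shown, so CA9 has no point in siSTAT3+Vector or siSTAT3+HMGN5. ENO1 and PKM lie above 149 TPM in every library, GAPDH lies between 0.158 and 1.41 TPM, and HIF1A drops from 34.4 to 42.5 TPM in Ctrl+Vector to 6.43 to 11.4 TPM in siSTAT3+Vector.

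The estimated reads per library summed to 19114033 to 19509422 without the virus and to 22500086 to 23047081 with it, and the 9 transcripts took 0.211% to 0.474% of them. The Ctrl libraries fell into 2 pairs. Over 15755 transcripts with a mean of at least 10 counts per 1000000 reads (CPM), the median absolute log2 difference was 0.14 between Ctrl replicates 1 and 2 and 0.162 between replicates 3 and 4, but 0.326 to 0.337 between the pairs. In the other groups, replicates differed by 0.122 to 0.156. The labels name no batch, so results against Ctrl are given with all 4 libraries and with each pair. The knockdown of STAT3 and HMGN5 and the markers of the cell line were not checked, since no table at hand pairs their transcripts with gene names.

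Levels between libraries were compared as CPM, scaled within each experiment. Among the controls themselves, the HIF1A transcript was at 411 and 373 CPM in Ctrl replicates 1 and 2 and at 127 and 160 CPM in replicates 3 and 4. The first pair was thus 2.74-fold above the second on average. The SLC2A1 transcript went the other way, at 63 and 60.8 CPM in the first pair and at 117 and 128 CPM in the second. HK2 was at 84.7 and 93.6 CPM in the first pair and at 49 and 57.1 CPM in the second. LDHA, at 11.6 and 17.4 CPM against 6.91 and 6.87, also differed between the pairs. PGK1, from 129 to 142 CPM, and GAPDH, from 3.35 to 4.28 CPM, had pair means within 1.06-fold of each other. ENO1 was 1.11-fold and PKM 1.14-fold higher in the second pair. The pairs were recognised from the data, so these differences are given without a test.

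**Figure D2:**
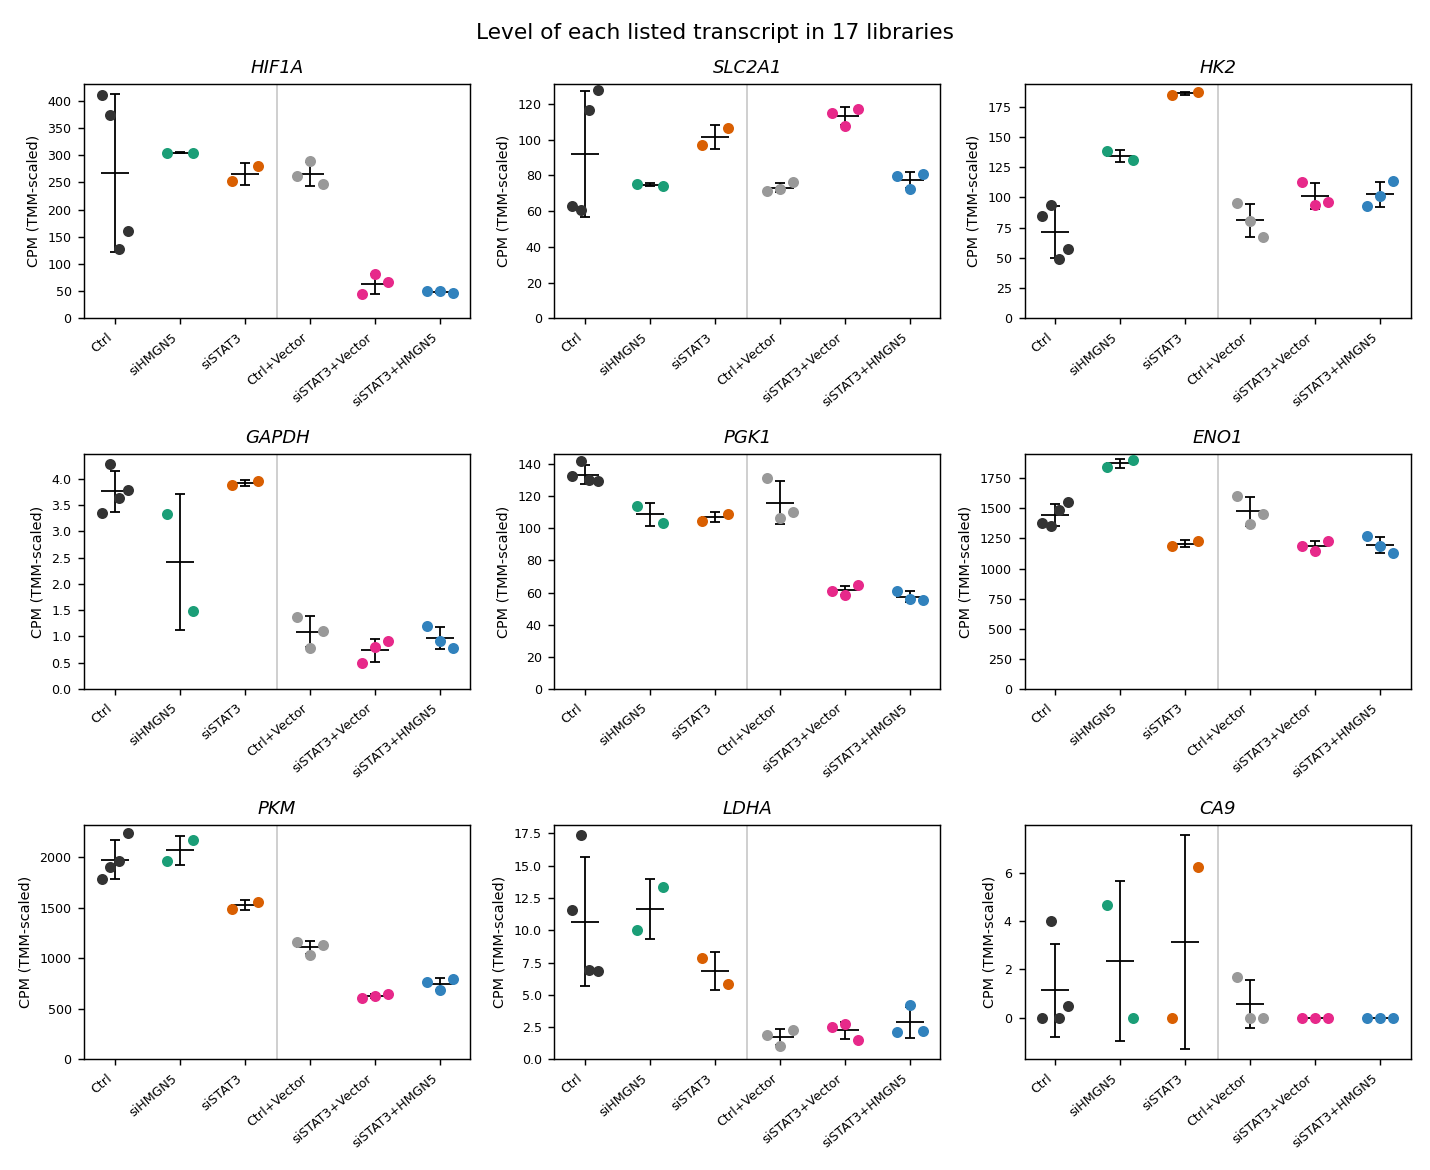
CPM (scaled by the trimmed mean of M-values within each experiment) of each transcript, 1 point per library in replicate order within a group, with group means and SD as bars; the grey line separates the experiments. The 4 Ctrl points of HIF1A lie at 411, 373, 127 and 160 CPM, and all 6 libraries of siSTAT3+Vector and siSTAT3+HMGN5 lie at or below 81.1 CPM.

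The effect of STAT3 siRNA on the listed transcripts was addressed in cells with and without the vector. In the lentiviral experiment 4 of the 9 transcripts fell and 1 rose in siSTAT3+Vector against Ctrl+Vector. HIF1A, PGK1, PKM and ENO1 were lower and SLC2A1 was higher. In that comparison 14.3% of 69768 transcripts passed the test, 7.07% lower and 7.2% higher (edgeR quasi-likelihood test, threshold of 0.05 on the adjusted p). The median log2 fold change was -0.44 over the 8 members tested and 0.02 over all transcripts. CA9 did not pass the filter on low counts and was not tested.

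The largest change among the members was that of HIF1A (gene at chr14:61695513-61748258, GRCh38.p14). Its transcript was at 261, 288 and 246 CPM in Ctrl+Vector and at 44.6, 81.1 and 66.3 CPM in siSTAT3+Vector. Every siSTAT3+Vector library was below every control library. The transcript was 4.14-fold lower, and the log2 difference was -2.05 with an SE of 0.20 (adjusted p = 0.000465). In bulk RNA, a change in the number of cells that express a gene and a change in the amount per cell cannot be told apart. Sums per gene were not run, so a change of the gene cannot be told from a shift between its transcripts. The same holds for the other members.

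The transcripts of 3 enzymes of the lower part of glycolysis fell with it. PGK1 (chrX:78104248-78129295), whose product makes the first ATP of the pathway, was at 131, 106 and 110 CPM in Ctrl+Vector and at 60.9, 58.7 and 64.5 CPM in siSTAT3+Vector. It was 1.89-fold lower, again without overlap (log2 difference -0.92 ± 0.09, adjusted p = 0.000484). PKM (chr15:72199029-72231591) went from 1157, 1037 and 1133 CPM to 612, 628 and 645 CPM. It was 1.76-fold lower, with no overlap between the groups (log2 fold change -0.82 ± 0.06, adjusted p = 0.000187). ENO1 (chr1:8861000-8878686) went from 1606, 1371 and 1449 CPM to 1184, 1144 and 1226 CPM. Its fall was the smallest of the 4, at 1.25-fold (log2 fold change -0.32 ± 0.07, adjusted p = 0.0177). Without siSTAT3+Vector replicate 1 or 2 the call of ENO1 ended (adjusted p = 0.0538 and 0.0777), at the same direction.

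The transcript of the glucose transporter moved against these. SLC2A1 (chr1:42925353-42958868) was at 71, 72.4 and 76.2 CPM in Ctrl+Vector and at 115, 107 and 117 CPM in siSTAT3+Vector. It was 1.54-fold higher without overlap (log2 fold change 0.63 ± 0.06, adjusted p = 0.000445). HK2 (chr2:74834127-74893359) was at 95, 80.5 and 67.4 CPM in the control and at 113, 93.7 and 96.3 CPM with STAT3 siRNA. The groups overlapped and the difference did not pass the test (log2 fold change 0.32 ± 0.14, adjusted p = 0.196). The GAPDH and LDHA transcripts were at most 1.38 and 2.74 CPM in these groups, with log2 fold changes of -0.57 ± 0.40 and 0.37 ± 0.42 (adjusted p = 0.446 and 0.684). With so few reads, neither difference could be told from the spread between replicates.

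**Figure D3:**
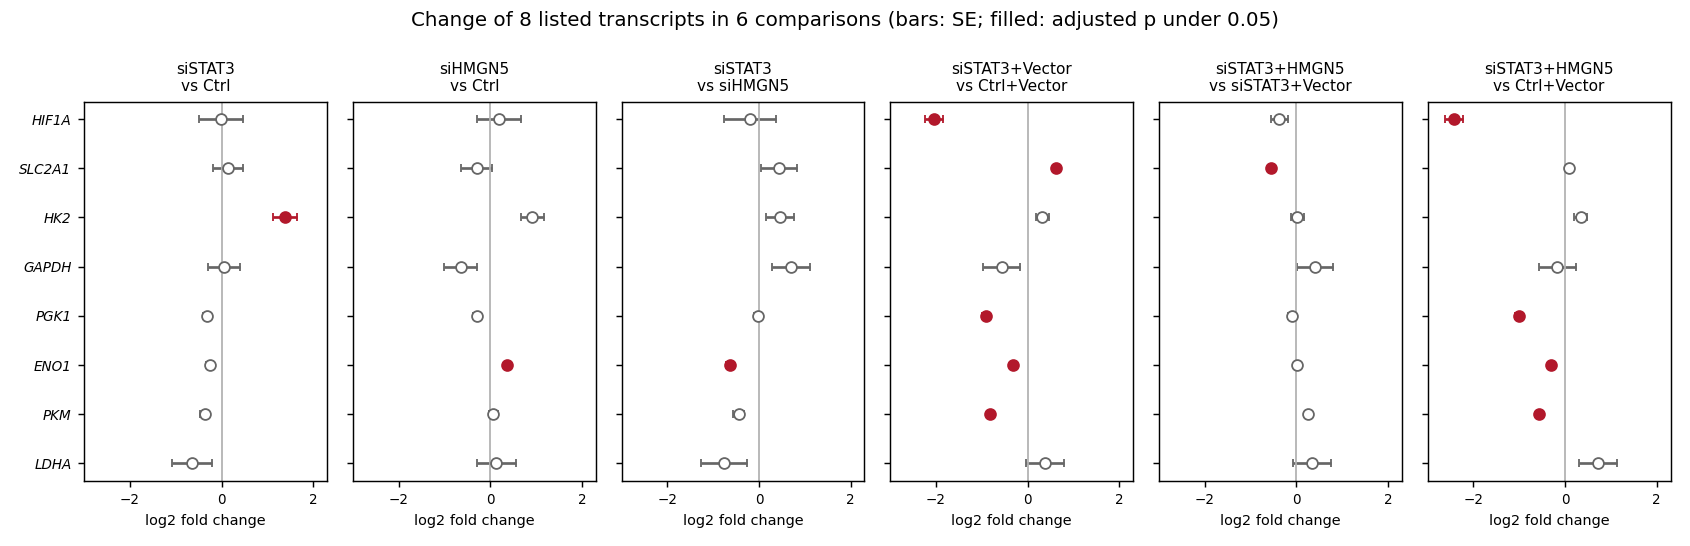
Log2 fold changes with SE of the 8 transcripts other than CA9 in 6 comparisons (1 panel each), filled where the adjusted p was under 0.05. HIF1A stands at -2.05 and -2.42 in the 2 panels against Ctrl+Vector, and SLC2A1 changes sign from 0.63 to -0.54 between siSTAT3+Vector vs Ctrl+Vector and siSTAT3+HMGN5 vs siSTAT3+Vector.

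In the siRNA experiment only HK2 passed edgeR's test for STAT3 siRNA against all 4 Ctrl libraries, and it was higher. HK2 was at 84.7, 93.6, 49 and 57.1 CPM in Ctrl and at 185 and 187 CPM in siSTAT3. Both siSTAT3 libraries lay above all 4 controls, by 2.61-fold on average (log2 fold change 1.39 ± 0.25, adjusted p = 0.0345). Of 74346 transcripts tested, 4.28% passed, 1.36% higher and 2.92% lower. The rise held against Ctrl replicates 1 and 2 alone (log2 fold change 1.06, adjusted p = 0.00676) and against replicates 3 and 4 alone (1.79, adjusted p = 0.00443). Without siSTAT3 replicate 1 or 2, or without Ctrl replicate 1 or 4, the call ended (adjusted p = 0.169, 0.171, 0.0564 and 0.0753), at the same direction. It also ended with only the compared groups (0.0712) and without the filter on low counts (0.0501). The median log2 fold change of the 9 members was -0.01, against 0.00 over all transcripts.

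HIF1A gave no single answer there. It was at 252 and 280 CPM in siSTAT3, below Ctrl replicates 1 and 2 and above replicates 3 and 4. The log2 fold change was -0.01 ± 0.49 with all controls (adjusted p = 0.999), -0.56 ± 0.07 against the first pair (adjusted p = 0.0281) and 0.87 ± 0.13 against the second (adjusted p = 0.0292). SLC2A1, at 96.7 and 106 CPM in siSTAT3, also lay between the pairs. It was higher than in the first pair (0.71 ± 0.06, adjusted p = 0.0125) and had a log2 fold change of -0.29 ± 0.08 against the second (adjusted p = 0.106). The direction of both transcripts thus depended on which controls were used.

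The PGK1, PKM and ENO1 transcripts had negative log2 fold changes against either pair of controls. PGK1 was at 105 and 109 CPM in siSTAT3, with a log2 fold change of -0.32 ± 0.08 (adjusted p = 0.0782). PKM was at 1488 and 1557 CPM (-0.37 ± 0.10, adjusted p = 0.118) and ENO1 at 1184 and 1226 CPM (-0.26 ± 0.08, adjusted p = 0.133). Every siSTAT3 library was below every Ctrl library for these 3 transcripts, but none passed the test. How many of all transcripts separate in this way was not counted, so no conclusion is drawn from it. DESeq2 called all 3 (adjusted p = 1.72e-05, 0.00418 and 0.00315). ENO1 and PKM also passed edgeR's test against Ctrl replicates 3 and 4 alone (adjusted p = 0.0201 and 0.0468). Both settings called more transcripts in general. DESeq2 called 6568 of 74346 lower, against 2170 in edgeR with all controls, and edgeR called 3617 of 70600 lower against replicates 3 and 4. LDHA, at 7.87 and 5.83 CPM, had a log2 fold change of -0.64 ± 0.44 (-1.08 and -0.03 against the first and second pair), and GAPDH, at 3.88 and 3.96 CPM, one of 0.06 ± 0.35 (adjusted p = 0.537 and 0.973).

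**Figure D4:**
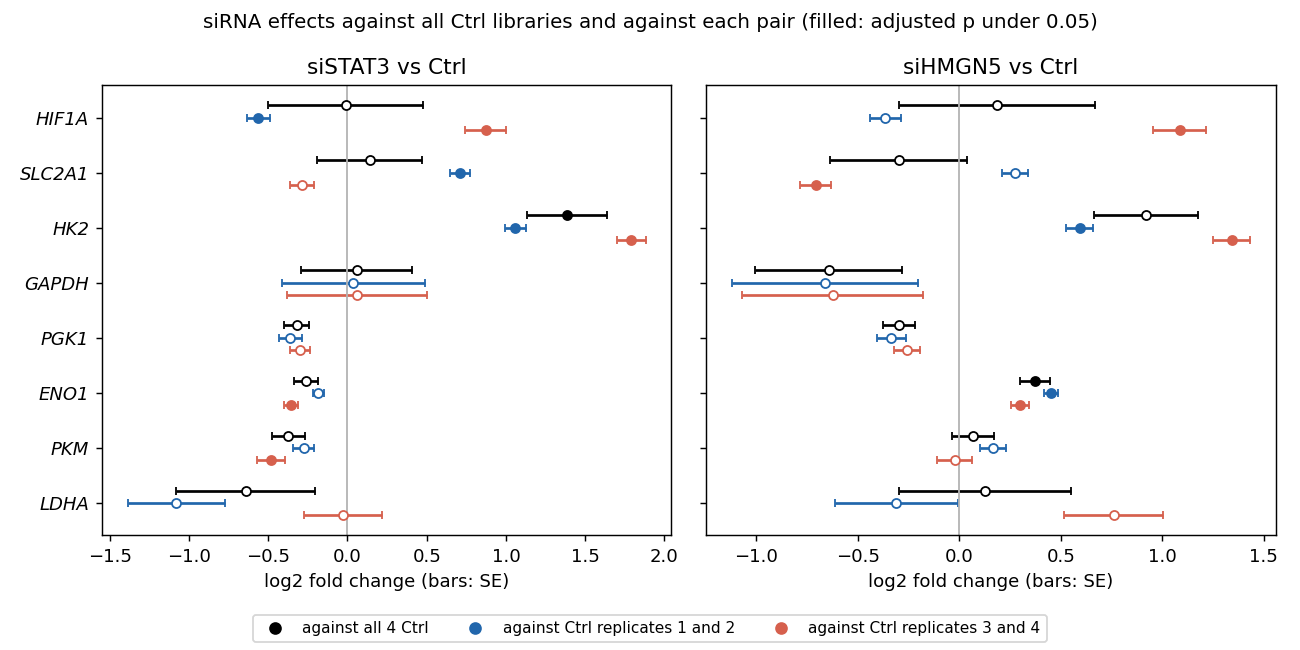
Log2 fold changes with SE of 8 transcripts in siSTAT3 (left) and siHMGN5 (right) against all 4 Ctrl libraries (black) and against each pair (blue, replicates 1 and 2; red, replicates 3 and 4), filled where the adjusted p was under 0.05. HIF1A in siSTAT3 lies at -0.56 against the first pair and at 0.87 against the second, while HK2 stays above 0 in all 6 estimates.

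Whether STAT3 siRNA acted alike in both experiments was tested in 1 fit of all 17 libraries, and 2 of the 9 transcripts passed. Of all transcripts tested, 5.51% passed: 2.23% had a more positive and 3.28% a more negative effect in the siRNA experiment. For HIF1A the log2 fold change was more positive there than in the lentiviral experiment, by 2.02 ± 0.52 (adjusted p = 0.0387). With Ctrl replicates 1 and 2 alone the difference was 1.48 ± 0.26, and with replicates 3 and 4 alone it was 2.91 ± 0.28 (adjusted p = 0.00533 and 5.03e-05). For PGK1 it was more positive by 0.58 ± 0.12 (adjusted p = 0.0105), and by 0.54 and 0.61 with the first and second pair (adjusted p = 0.0276 and 0.00891). HK2 (1.05 ± 0.30, adjusted p = 0.0618) and PKM (0.43 ± 0.12, adjusted p = 0.0599) did not pass in the main fit with all controls, nor did SLC2A1 (-0.51 ± 0.34, adjusted p = 0.51) or ENO1 (0.03 ± 0.10, adjusted p = 0.995). HK2 passed with either pair alone (0.73 and 1.46, adjusted p = 0.0489 and 0.000607). PKM passed with the first pair (0.53, adjusted p = 0.00754) and not with the second (0.33, adjusted p = 0.0896). With all controls PKM passed under upper quartile scaling (adjusted p = 0.0401) and library totals (0.0306). DESeq2 called HK2 and PKM with all controls (adjusted p = 0.00671 and 0.00676). It called 4490 of 86839 transcripts more positive, against 1935 in edgeR. SLC2A1 passed with the second pair (-0.92, adjusted p = 9.09e-05) and not with the first (0.07, adjusted p = 0.826). The HIF1A call ended without any 1 library of siSTAT3, Ctrl+Vector or siSTAT3+Vector, or without Ctrl replicate 4 (adjusted p up to 0.132). That of PGK1 ended without siSTAT3 replicate 2 (adjusted p = 0.0636). Infection and experiment change together and cannot be told apart.

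The effect of HMGN5 siRNA was addressed by siHMGN5 against Ctrl. ENO1 was higher, and no other member passed edgeR's test with all 4 controls. ENO1 was at 1381, 1357, 1485 and 1555 CPM in Ctrl and at 1845 and 1899 CPM in siHMGN5. Both siHMGN5 libraries were above all controls, by 1.3-fold (log2 fold change 0.37 ± 0.07, adjusted p = 0.0491). Of all transcripts 3.39% passed, 0.943% higher and 2.45% lower. The call lay at the threshold: it ended with RLE scaling (adjusted p = 0.0535) and without any 1 library of either group (adjusted p = 0.0522 to 0.299). It held against each Ctrl pair, at 0.45 and 0.30 (adjusted p = 0.0119 and 0.0288).

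HK2 was at 138 and 131 CPM in siHMGN5, above all 4 Ctrl libraries. With the spread of all controls the difference did not pass (log2 fold change 0.92 ± 0.26, adjusted p = 0.134), and against each pair it did (0.59 and 1.34, adjusted p = 0.024 and 0.00641). PGK1 was at 114 and 103 CPM, below all controls (-0.30 ± 0.08, adjusted p = 0.109). DESeq2 called HK2 and PGK1 with all 4 controls (adjusted p = 0.00648 and 0.000122). It also called more transcripts in general, 3596 higher and 6295 lower of 74346, against 701 and 1820 in edgeR. HIF1A, at 305 and 304 CPM, again lay between the Ctrl pairs, with a log2 fold change of 0.19 ± 0.48 against all controls, -0.36 ± 0.07 against the first pair and 1.09 ± 0.13 against the second (adjusted p = 0.929, 0.0812 and 0.0184). SLC2A1, at 75.4 and 74.3 CPM, did the same with the signs exchanged (-0.30 ± 0.34, 0.27 ± 0.06 and -0.71 ± 0.08, adjusted p = 0.769, 0.104 and 0.0151). Both thus passed against the second pair only. PKM differed by 0.07 ± 0.10 (adjusted p = 0.847). Both knockdowns were compared with the same Ctrl libraries, so their fold changes are not independent.

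Set directly against each other, the knockdowns differed in ENO1. Its transcript was at 1184 and 1226 CPM in siSTAT3 and at 1845 and 1899 CPM in siHMGN5, a 1.55-fold difference that does not rest on the Ctrl libraries (log2 fold change -0.64 ± 0.09, adjusted p = 0.0142). In this comparison 3.89% of transcripts passed, 1.87% lower and 2.02% higher in siSTAT3. The call ended when any 1 of the 4 libraries was left out (adjusted p = 0.0695 to 0.108), which leaves 1 library in a group. PKM, at 1488 and 1557 CPM against 1966 and 2168, did not pass (-0.44 ± 0.12, adjusted p = 0.114). It did with DESeq2 (adjusted p = 0.00308), with library totals as the scaling (0.0473) and with the replicate block (0.0233). DESeq2 called 5007 of all 74346 transcripts lower here, against 1389 in edgeR. HK2, at 185 and 187 CPM against 138 and 131, did not pass in the fit that takes its spread from all 8 libraries (0.47 ± 0.30, adjusted p = 0.511). With only the compared groups it did (0.46, adjusted p = 0.0386). HIF1A (-0.20 ± 0.56, adjusted p = 0.951) and PGK1 (-0.02 ± 0.09, adjusted p = 0.967) did not pass.

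Whether HMGN5 supplied from a vector altered these transcripts in cells given STAT3 siRNA was addressed by siSTAT3+HMGN5 against siSTAT3+Vector. SLC2A1 was the only member that passed, and it fell. It was at 115, 107 and 117 CPM in siSTAT3+Vector and at 79.4, 72.2 and 80.8 CPM with HMGN5. The groups did not overlap, and the transcript was 1.46-fold lower (log2 fold change -0.54 ± 0.06, adjusted p = 0.00403), where 3.77% of transcripts passed, 2.25% lower and 1.52% higher. Against Ctrl+Vector, at 71, 72.4 and 76.2 CPM, the cells with HMGN5 overlapped the controls, with a log2 fold change of 0.08 ± 0.06 (adjusted p = 0.397). The rise with STAT3 siRNA and the fall with HMGN5 share the siSTAT3+Vector libraries, so an error in those would enter both with opposite signs.

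None of the 4 transcripts that had fallen with STAT3 siRNA passed the test for a change with HMGN5. HIF1A was at 50.8, 50.1 and 47.5 CPM with HMGN5, with a log2 fold change of -0.37 ± 0.19 against siSTAT3+Vector (adjusted p = 0.417). PGK1 was at 61.2, 56 and 55.1 CPM (-0.10 ± 0.09, adjusted p = 0.756) and ENO1 at 1268, 1188 and 1132 CPM (0.01 ± 0.07, adjusted p = 0.98). Their groups overlapped those without HMGN5. PKM was at 765, 684 and 790 CPM, above all 3 siSTAT3+Vector libraries, but the difference did not pass the test (0.25 ± 0.06, adjusted p = 0.0901). DESeq2 called it (adjusted p = 0.00348), but it also called 3644 of all 69768 transcripts higher here, against 1062 in edgeR. HK2, at 92.6, 101 and 114 CPM, differed by 0.02 ± 0.14 (adjusted p = 0.986).

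Against Ctrl+Vector, 4 members were lower in siSTAT3+HMGN5 and none was higher, where 22.3% of transcripts passed, 11.4% lower and 10.9% higher. HIF1A was 5.36-fold lower (log2 fold change -2.42 ± 0.20, adjusted p = 0.000132) and PGK1 2.02-fold lower (-1.01 ± 0.09, adjusted p = 0.00018). PKM was 1.49-fold lower (-0.57 ± 0.06, adjusted p = 0.000578). ENO1 was 1.23-fold lower (-0.30 ± 0.07, adjusted p = 0.0148), a call that ended without siSTAT3+HMGN5 replicate 2 (adjusted p = 0.0539). The libraries of the 2 groups did not overlap for these 4 transcripts. The share of all transcripts without overlap was not counted.

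Across the 17 libraries, with each experiment centred on its own mean, the transcript most like HIF1A among the members was PGK1 (Pearson r = 0.81 of log2 CPM), followed by PKM (r = 0.65). PGK1 was as like PKM (r = 0.81), ENO1 was most like PKM (r = 0.77), and SLC2A1 ran against HIF1A (r = -0.57). These values describe libraries that fall into treatment groups and share those groups, so differences between groups enter each value. The split of the Ctrl libraries enters as well. There HIF1A was 2.74-fold higher in replicates 1 and 2, and SLC2A1 was 1.97-fold higher in replicates 3 and 4. No test was made.

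The level of some members also differed between the experiments. PKM stood at 484 to 580 TPM in Ctrl and at 265 to 285 TPM in Ctrl+Vector. LDHA stood at 1.77 to 4.33 TPM in Ctrl and at 0.265 to 0.561 TPM in Ctrl+Vector, and GAPDH at 1.16 to 1.41 and 0.257 to 0.405 TPM. PGK1 stood at 15.5 to 16.5 and 12.3 to 13.6 TPM. The ranges of HIF1A, SLC2A1, HK2 and ENO1 overlapped between the 2 control groups. These differences were not tested, because vector and experiment cannot be told apart.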

How the data were processed

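RNA-seq libraries of 17 samples were analysed; the 2 H3K27ac CUT&Tag samples were not analysed here. Per the file headers, each table gives for every Ensembl transcript its length and effective length (in bases), TPM and estimated read count. The estimated counts deposited by the authors need not be whole, since reads shared by transcripts are divided by a model. TPM, also as deposited, adjusts for the effective length. Builds GRCh38 and hg38 and the tools CASAVA, Salmon 1.4.0, HOMER and Bowtie2 are named in the submitters' processing notes, with no roles. The transcript release and the options are not given in the sources used here.

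Groups and replicate numbers came from sample titles. Estimated counts were rounded, and the 8 siRNA and 9 lentiviral libraries were fitted apart with edgeR 4.0.16 in R 4.3.3 (TMM scaling, filterByExpr, quasi-likelihood test). Benjamini-Hochberg adjustment ran over all transcripts tested, with a threshold of 0.05, and the SE was taken from the fold change and the test statistic. DESeq2 1.42.0, other scalings, no filter, left-out libraries, a replicate block, and fits of only the compared groups were alternatives. The procedure was tested on simulated data. A count of 3 reads corresponds to 0.13 to 0.157 CPM.

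Gene names came with the list of members, which, like the tests, was chosen with earlier results of these data known. All 9 members were named by rule. Planned lists of other glycolysis and hypoxia genes, the marker genes and sums per gene were not run, because transcripts could not be paired with genes.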

Additional observations from a re-analysis of the deposited data

Results flagged for a closer look

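The CA9 transcript in Ctrl had 1 library far from the other 3: replicate 2 stood at 4.02 CPM, against 0, 0 and 0.472 CPM. The gap was 0.882 of the range, above Dixon's 95% limit for 4 samples. Of 9 transcripts checked this way in Ctrl, CA9 was the only one past the limit, and chance passes about 1 in 20. A single library with reads was also seen in siHMGN5 (replicate 1, 4.68 CPM), siSTAT3 (replicate 2, 6.26 CPM) and Ctrl+Vector (replicate 1, 1.7 CPM).

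The STAT3 siRNA effect on HIF1A differed between the experiments, with a difference in log2 fold change of 2.02 ± 0.52 (edgeR quasi-likelihood test, adjusted p = 0.0387). In the lentiviral experiment the fold change was -2.05, and in the siRNA experiment it was -0.01 with Ctrl libraries from 127 to 411 CPM. The effect on PGK1 differed by 0.58 ± 0.12 (adjusted p = 0.0105), from -0.92 in the lentiviral to -0.32 in the siRNA experiment.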

How the results depend on the processing

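The 15 results that passed the test kept their direction in all of their 211 alternatives, and the call was lost in 33. HIF1A, PGK1, PKM and SLC2A1 in siSTAT3+Vector vs Ctrl+Vector, HIF1A, PGK1 and PKM in siSTAT3+HMGN5 vs Ctrl+Vector, and SLC2A1 in siSTAT3+HMGN5 vs siSTAT3+Vector passed the test in each of their 13 alternatives (adjusted p up to 0.0218). The losses lay with HK2 in siSTAT3 vs Ctrl, HIF1A and PGK1 in the difference between experiments, and ENO1 in each comparison that called it. The cause was not tested. Leaving a library out of a group of 2 assumes that the lone sample varies like the other groups. Sums per gene were not run. Estimates of 11 to 82 reads for GAPDH and 24 to 333 for LDHA limit what can be said of both.

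For siSTAT3 vs Ctrl, where 1 member passed, 4 passed with DESeq2, 0 without a low-count filter and 0 with only the compared groups. There 3 passed without Ctrl replicates 3 and 4, 4 without replicates 1 and 2, and 0 to 1 without single Ctrl libraries. Calls over all transcripts moved too. In siSTAT3 vs Ctrl edgeR called 1011 higher and 2170 lower of 74346, and DESeq2 called 4034 and 6568. Without Ctrl replicates 3 and 4 edgeR called 1833 and 2794 of 70725, and without replicates 1 and 2 it called 2642 and 3617 of 70600. For siHMGN5 vs Ctrl (1 member), 0 passed with RLE scaling, 0 without the filter, 0 with only the compared groups, 3 with DESeq2, 2 and 4 against the first and second Ctrl pair, and 0 to 0 without single libraries. For siSTAT3 vs siHMGN5 (1 member), 2 passed with library totals, DESeq2 or only the compared groups, and 0 to 0 without single libraries. With DESeq2, 2 members passed in siSTAT3+HMGN5 vs siSTAT3+Vector (1 in edgeR). Over all transcripts DESeq2 there called 3644 higher and 4434 lower, against 1062 and 1569 in edgeR. In siHMGN5 vs Ctrl it called 3596 and 6295, against 701 and 1820. There edgeR called 1197 higher and 2232 lower against the first Ctrl pair, and 2638 and 3611 against the second. In siSTAT3 vs siHMGN5 DESeq2 called 5171 and 5007, against 1504 and 1389 in edgeR. For the difference between experiments (2 members), 4 passed with DESeq2, 1 without the filter, 4 against either Ctrl pair, and 0 to 3 without single libraries.

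The 45 results that did not pass changed sign in 39 of 650 alternatives, over 17 results. They passed with an unchanged sign in 32. In siSTAT3 vs Ctrl, HIF1A was 0.03 with upper quartile scaling, 0.87 without Ctrl replicates 1 and 2 and -0.26 to 0.27 without single libraries. The value of 0.87 passed edgeR's test with its sign changed (adjusted p = 0.0292) and is not among the 32. SLC2A1 was -0.29 without Ctrl replicates 1 and 2 and -0.01 to 0.34 without single libraries. In siHMGN5 vs Ctrl, leaving out Ctrl replicates 3 and 4 gave -0.36 for HIF1A, 0.27 for SLC2A1 and -0.31 for LDHA, and leaving out replicates 1 and 2 gave -0.02 for PKM. Without single libraries HIF1A ranged from -0.05 to 0.47, PKM from -0.02 to 0.13 and LDHA from -0.11 to 0.46. PGK1 in siSTAT3 vs siHMGN5 ranged from -0.10 to 0.03. In siSTAT3+HMGN5 vs siSTAT3+Vector, HK2 ranged from -0.06 to 0.11, ENO1 from -0.03 to 0.05 and LDHA from -0.05 to 0.52, and GAPDH against Ctrl+Vector from -0.36 to 0.04. In the difference between experiments, SLC2A1 was 0.07 without Ctrl replicates 3 and 4, and ENO1 was -0.05 without replicates 1 and 2 and -0.04 to 0.09 without single libraries. CA9, with reads in 5 libraries, ranged from -7.45 to 4.26 in siSTAT3 vs Ctrl, -7.44 to 3.84 in siHMGN5 vs Ctrl, -8.50 to 8.89 between the knockdowns and -0.95 to 10.85 between experiments, so its fold change cannot be read.

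Deviations of same-numbered libraries from their group means correlated at -0.0889 to 0.0556, so no pairing by replicate number was seen. In the siRNA experiment this check could hardly show pairing. Groups of 2 libraries give mirrored deviations, and the deviations in Ctrl hold the split between its pairs. With a replicate block, 3 members passed in siSTAT3 vs Ctrl, 1 in siHMGN5 vs Ctrl, 2 in siSTAT3 vs siHMGN5, 5, 1 and 4 in the lentiviral comparisons and 3 in the difference between experiments. Under the replicate block HIF1A, SLC2A1 and LDHA in siHMGN5 vs Ctrl were -0.36, 0.27 and -0.31. CA9 in siSTAT3 vs siHMGN5 was -4.37, and SLC2A1 in the difference between experiments was 0.07. Replicates 3 and 4 exist only in Ctrl, so the block absorbs them, and comparisons with Ctrl then rest on Ctrl replicates 1 and 2. The HIF1A, SLC2A1 and LDHA values thus repeat those without Ctrl replicates 3 and 4 and are no separate check. Of all transcripts, 1149 were lower and 473 higher in siSTAT3 vs Ctrl under the block, against 2170 and 1011 without it. Leaving out Ctrl replicates 3 and 4 without a block gave 2794 lower and 1833 higher.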
